A study of Mus musculus with 40 samples.

Results

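The cerebral cortex and the cerebellum of 29-month-old wild-type mice were compared on 8 of the 40 microarrays of a mouse brain study, with 4 arrays of cortex (WT_29Mo_Cortex, replicates 1 to 4) against 4 of cerebellum (WT_29Mo_Cerebellum, replicates 1 to 4). The arrays were chosen by their labels alone: wild type, 29 months, normal diet. The study's paper gives C57Bl/6 as the strain of its ischemia mice and states none for the mice of the arrays. The compared mice ate a diet with 36 mg alpha-tocopherol (the main form of vitamin E) per kg. The study also held young wild types (2 months, normal diet), old wild types (29 months) on a diet deficient in vitamin E, and mice lacking Ttpa (Ttpa-/-, the gene of the alpha-tocopherol transfer protein) of 29 months on the deficient diet or on a diet with 600 mg alpha-tocopherol per kg, each with 4 arrays of either region. Those groups served to see which regional differences were also found on arrays outside the 29-month comparison. The 2-month arrays also entered the tests of age. All 40 arrays shared 1 estimate of the spread, which enters every p-value, also those of the 29-month comparison. The labels number the replicates without saying that each came from a separate mouse, so p-values measure the spread between these samples.

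The cerebral cortex is built from layered glutamatergic projection neurons and several classes of inhibitory interneurons, whereas the cerebellum is dominated by small granule cells that feed large inhibitory Purkinje cells, whose radial astrocytes are the Bergmann glia. Astrocytes take up glutamate and potassium, oligodendrocytes make myelin from a pool of precursor cells, and microglia, the resident macrophages of the brain, survey the tissue and clear debris. With age and injury microglia lower some of their surveying genes and raise a phagocytic and lipid-handling set, often called disease-associated, and cells that sense interferon switch on a further set of antiviral genes.

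The labelled tissues matched their defining neuronal genes, but some arrays also carried genes of neighbouring tissue, which bears on several values below. A level is the log2 of a probe's signal relative to the 75th percentile of its array, and a difference is the mean level in cortex minus the mean level in cerebellum. The dorsal midbrain transcription factors Pou4f2, Gata3, Lhx9 and Tfap2d, picked after their values were seen, were well above background on all 4 cerebellum arrays of 29 months and on only replicates 3 and 4 of 2-month cerebellum. The Pou4f2 level on the 29-month cerebellum arrays was -0.62, -1.54, -0.13 and -0.67, against -6.45, -6.75, -1.49 and -0.51 on the 2-month cerebellum arrays. Lhx2, a transcription factor of forebrain and midbrain, followed the same pattern, with 0.26, -0.31, 0.40 and -0.06 at 29 months and -6.59, -5.88, -0.71 and 0.27 at 2 months. Of 16 brainstem genes, 1 was bright enough to be tested and it was not called. Of 4 tested hippocampal genes, 2 were higher in cortex and 2 in cerebellum at 29 months. Spink8, of that list, read 1.99, 2.37, 2.01 and 1.89 on the 29-month cortex arrays. On the 2-month cortex arrays it read 2.14, 1.73, 1.77 and -2.27. In cortex, replicate 4 stood apart from the other 3 at both ages in choroid plexus genes: Ttr, the plexus transthyretin, read 6.49, 5.56, 7.07 and 1.72 at 29 months. The 2-month cerebellum arrays differed in Ttr too, with 7.78, 4.64, 2.55 and 1.19. The part of this neighbouring tissue in the results was not tested, and counts of the lists below that changed by 1.5 times or more without these arrays are given both ways.

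**Figure D1:**
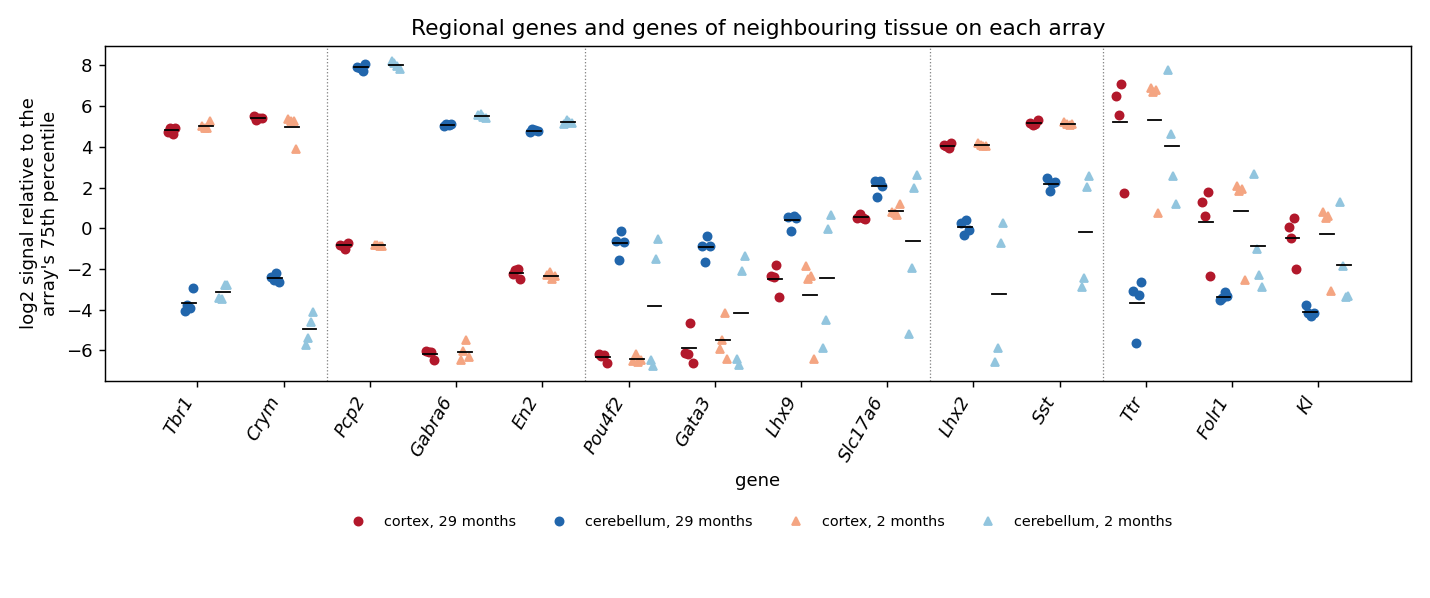
Levels (log2 signal relative to the array's 75th percentile) of cortical genes, cerebellar genes, dorsal midbrain genes, genes shared by forebrain and midbrain, and choroid plexus genes, on each of the 4 arrays per group, with the bar at the group mean. Tbr1, Crym, Pcp2, Gabra6 and En2 separate the regions on every array, while Pou4f2, Gata3, Lhx9 and Slc17a6 are present in all 29-month cerebellum arrays and split the 2-month cerebellum arrays, and Ttr, Folr1 and Kl are low in cortex replicate 4 at both ages.

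Among 30859 probes bright enough to be tested at 29 months, 4869 (15.8%) were called higher in cortex and 5497 (17.8%) higher in cerebellum, at a limma adjusted p under 0.05 and over 1.5-fold, so that 33.6% differed by region. The difference passed 4-fold for 1018 probes higher in cortex and 921 higher in cerebellum. The median difference over all tested probes was -0.01. The 4 cortex and 4 cerebellum levels did not overlap for 17401 probes (56.4%). Counted with 1 probe per gene, 2783 of 15208 genes (18.3%) were higher in cortex and 2406 (15.8%) higher in cerebellum, with a median difference of 0.02. The 75th percentile of signal was 483 to 517 on the cortex arrays and 616 to 683 on the cerebellum arrays, 52.0 to 60.6% of probes were above background, and replicates correlated at 0.991 to 0.998 across genes, which are not independent points. The 4 cortex arrays lay on 1 slide and the 4 cerebellum arrays on another, so that region and slide cannot be told apart within this comparison.

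The neuronal genes that define each region carried the largest differences. Tbr1, a transcription factor of deep-layer projection neurons (probe at chr2:61652093-61652152, mm9), had cortex levels of 4.73, 4.91, 4.62 and 4.94 and cerebellum levels of -4.07, -3.77, -3.93 and -2.93. The groups lay far apart, with a difference of 8.47 ± 0.195 (SE, n = 4 per region, limma adjusted p = 1.24e-26). Pcp2, the Purkinje cell protein (probe at chr8:3623377-3623436, mm9), read -0.80, -0.85, -1.01 and -0.71 in cortex against 7.94, 7.88, 7.71 and 8.05 in cerebellum. Every cerebellum array was above every cortex array, by -8.74 ± 0.12 (SE, n = 4, limma adjusted p = 4.72e-33).

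Among genes above background on all 8 arrays, the 10 largest cortex differences belonged to Tbr1, the thyroid hormone binding protein Crym (7.84), the dendritic adhesion molecule Icam5 (7.16), the dendritic protein Ddn (6.86), Rasl10a (6.58), Lamp5 of the cortical excitatory list (6.31), the potassium channel Kcnj4 (6.30), the muscarinic receptor Chrm1 (6.19), the syntaxin Stx1a of the release machinery (6.17) and Cpne7 (5.95). The 10 largest cerebellum differences belonged to Pcp2, the granule cell cadherin Fat2 (-7.17), Car8 of Purkinje cells (-7.16), the hindbrain patterning factor En2 (-6.98), Skor1 (-5.90), Patj (-5.81), Tfap2b (-5.78), Zic1 of granule cells (-5.40), the synaptic organiser Cbln1 (-5.27) and the potassium channel Kcng4 (-4.81). All 20 were called the same way at 2 months and in the 3 other 29-month groups.

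A further 131 genes were well above background on all 4 cortex arrays and on no cerebellum array, and 325 showed the reverse, so their folds are lower bounds set against the dimmest signal that counts as above background. Among the largest bounds in the cortex samples were at least 137-fold for Spink8 of the hippocampal list, at least 78.1-fold for Fezf2 of deep-layer neurons, at least 49.1-fold for the forebrain factor Emx1 and at least 45.0-fold for Slc23a3. In cerebellum the largest were at least 676-fold for Gabra6, the granule cell GABA receptor subunit, at least 419-fold for Crtam, at least 363-fold for Dao, which degrades D-serine in cerebellar astrocytes, at least 244-fold for Ppp1r17 of Purkinje cells, at least 124-fold for Zfp385c and at least 91.0-fold for Cbln3.

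The lists of neuronal identity genes divided almost completely by region. All 18 cortical excitatory genes were higher in cortex, with a median difference of 4.12, and so were 12 of 13 interneuron genes (median 4.25), the exception being Lhx6 at 0.03. All 14 granule cell genes (median -3.88) and 13 of 14 Purkinje genes (median -3.82) were higher in cerebellum. Of 37 glutamate and GABA receptor subunits, 18 were higher in cortex and 10 in cerebellum. The cortical side held Grin2b (4.01), a subunit of NMDA receptors, Gabra5 (3.91) and the metabotropic receptor Grm5 (2.65). The cerebellar side held Gabra6, Grin2c, Gabrd and Gria4 (-2.26). Striatal genes were mixed: 4 of 11 were higher on the cortex arrays, among them the dopamine receptor Drd1 (4.73), and 2 were higher in cerebellum.

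Most regional differences of old brain were also present in young brain. Of the 4869 probes higher in cortex at 29 months, 4272 (87.7%) were also called higher in cortex at 2 months, and 4 were called the opposite way. Of the 5497 probes higher in cerebellum, 4543 (82.6%) were called the same way at 2 months, and 3 the opposite way. At 2 months 5766 probes were higher in cortex and 5825 higher in cerebellum, 38.4% of 30203 tested, and 74.1% and 78.0% of them held at 29 months. In all 3 other 29-month groups, 3719 (76.4%) of the cortex probes and 3827 (69.6%) of the cerebellum probes were called the same way. The core called in all 5 groups of mice was 3503 probes for cortex and 3551 for cerebellum. In each group the 2 regions lay on different slides, so these counts do not separate region from slide. The 2-month cortex arrays shared the slide of the 29-month normal-diet cortex arrays. The cerebellum arrays of wild types on the deficient diet shared the slide of the 29-month normal-diet cerebellum arrays.

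A test of the difference between the 2 regional differences, 29 months minus 2 months, found 145 positive (0.462%) and 314 negative (1%) probes of 31372 at an adjusted p under 0.05 and over 1.5-fold (limma interaction contrast). This tests whether the region effect depended on age: a positive value means that cortex minus cerebellum was larger at 29 than at 2 months, and a negative one that it was smaller. The cortex arrays of both ages lay on 1 slide, whereas the cerebellum arrays of 2 and of 29 months lay on different slides, so that age and slide cannot be told apart in cerebellum or in any interaction below. Without replicate 2 of 2-month cerebellum the negative count was 205, and without replicate 4 it was 575. With 2-month cerebellum reduced to replicates 3 and 4, which share the midbrain genes with the 29-month arrays, the counts were 79 positive and 115 negative, and 169 of the 459 probes were called in both. Replicates 1 and 2, left out there, also had the highest Ttr levels of that group. This reduction therefore changes midbrain and choroid plexus genes together. Of the 593 cortex and 951 cerebellum probes called at 29 months but not at 2 months, 23 and 32 had a called interaction, so for the rest the 2 regional differences were not called different.

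**Figure D2:**
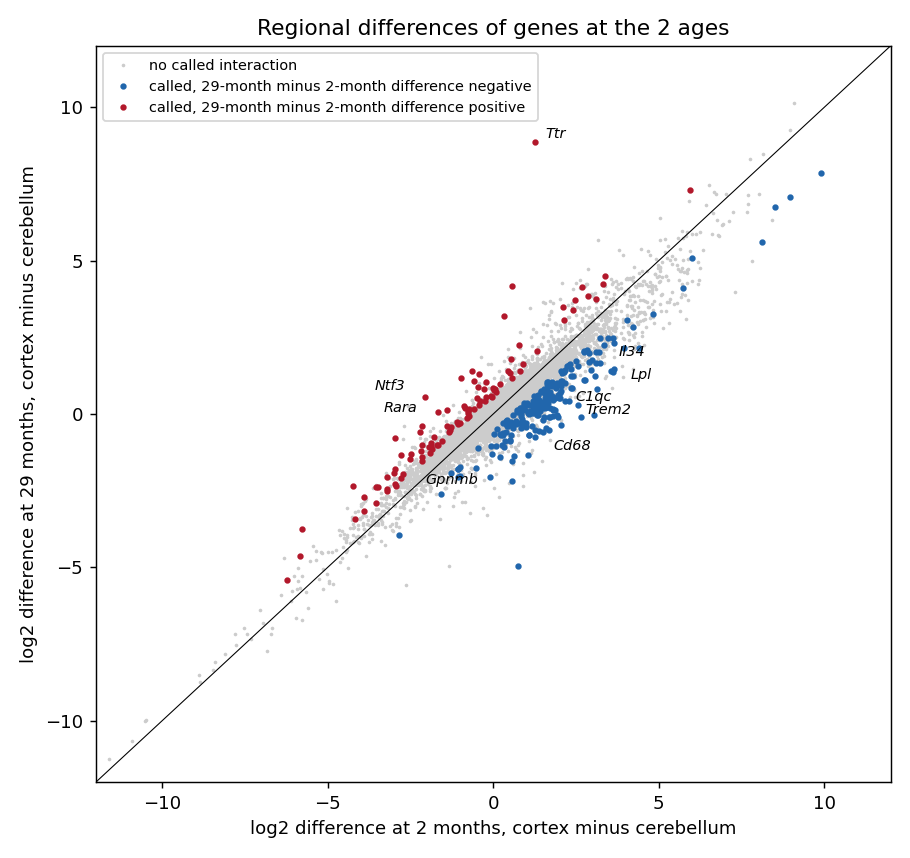
Regional difference (log2, cortex minus cerebellum) of each gene at 29 months, vertical axis, against 2 months, horizontal axis, with genes whose 2 differences themselves differed in red (positive, 96 genes) and blue (negative, 220 genes). Most genes lie along the diagonal, and labelled microglial genes such as Trem2, C1qc and Cd68 lie below it.

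Among genes above background on all 16 arrays of both ages, which leaves out genes such as Crym and Ttr, the 6 largest positive interactions reported here were those of the neurotrophin Ntf3 (2.59 ± 0.312, SE), Pdlim3 (2.03), the carbonic anhydrase Car9 (1.88), the retinoic acid receptor Rara (1.75), Col23a1 (1.68) and the sphingosine phosphate receptor S1pr2 (1.52). Ntf3 was -2.05 at 2 months and 0.55 at 29 months, the latter just under 1.5-fold. Its level in cerebellum was lower at 29 than at 2 months by -2.07, while cortex differed by 0.52, not called. The largest negative ones were those of the sarcomere protein Tcap (-2.76 ± 0.373, SE), Tpbg (-2.38), the lipoprotein lipase Lpl (-2.23), Fam163b (-2.18), the striatal signalling regulator Rgs9 (-2.17) and Gpnmb (-1.96). With 2-month cerebellum reduced to replicates 3 and 4, Car9 (1.66) and Rgs9 (-1.46) were no longer called, and Tpbg was at -1.09 and Fam163b at -1.07. Another probe for Rgs9 read -0.46 at 29 months, against 1.39 for the one shown. The mean level of the 11 striatal genes was 1.41 to 1.76 on the 2-month cortex arrays and 0.67 to 0.98 on the 29-month ones. Of these genes 4 had a called negative interaction, and 0 had one with 2-month cerebellum reduced. The part of striatal tissue in the Rgs9 value was not tested.

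Glial and immune genes differed in both directions. Of 256 such genes on the array, 231 were tested, 44 were higher in cortex and 50 in cerebellum, 40.7% in all against 34.1% of all genes, with a median difference of -0.13. The 83 glial genes split evenly, 18 each way, and the 148 immune genes gave 26 higher in cortex and 32 in cerebellum. Of all genes 18.3% were higher in cortex and 15.8% in cerebellum, the shares to set beside each list count below. At 2 months the 132 immune genes tested gave 50 and 11, where 21.3% of all genes were higher in cortex and 17.1% in cerebellum. Of the 256 genes 33 had a negative and 1 a positive interaction with age, against 1.44% and 0.626% of all genes, and 20 of these 34 interactions were called with 2-month cerebellum reduced to replicates 3 and 4. Of the 94 called, 66 had the same call at 2 months and 81 in all 3 other 29-month groups. Over all genes, 5189 were called, 4450 of them with the same call at 2 months and 3974 in all 3 other groups. Without cortex replicate 4 at both ages 88 were called, 83 of them in both analyses. In a fit with the slide as a block, which needs 1 regional difference shared by all conditions, 47 immune genes were higher in cortex and 9 in cerebellum. The shares of all genes in that fit are not given here, so these 2 counts are not read as particular to immune genes. In bulk tissue, fewer cells of a type and less RNA per cell cannot be told apart.

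**Figure D3:**
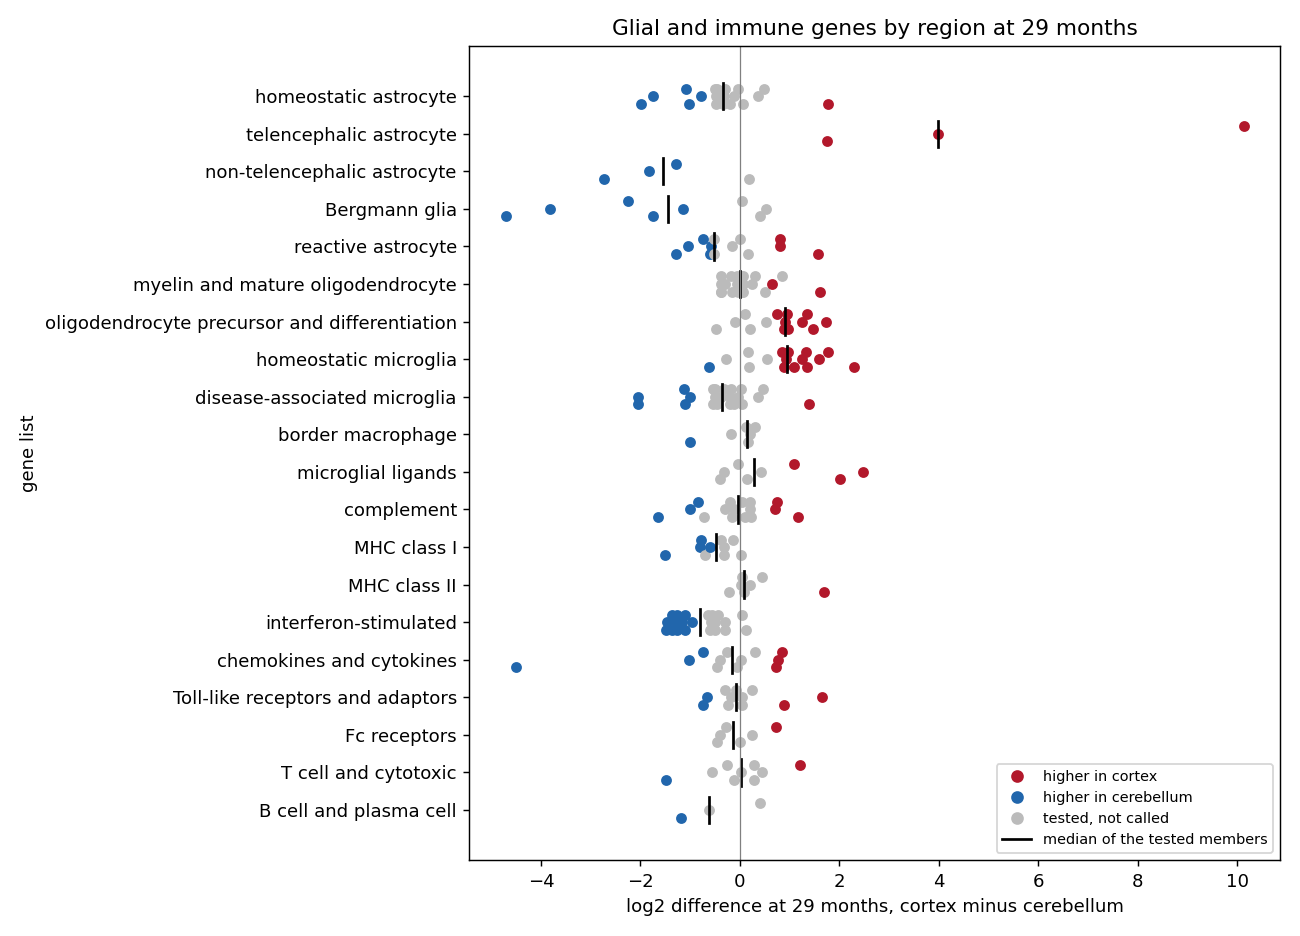
Difference at 29 months (log2, cortex minus cerebellum, horizontal axis) of each tested member of the glial and immune lists, red where called higher in cortex, blue where called higher in cerebellum, grey where not called, with the vertical bar at the list median. Precursor and homeostatic microglial genes lie to the right, Bergmann glial and interferon-stimulated genes to the left, and myelin genes around 0.

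Of 19 homeostatic astrocyte genes 6 were called (31.6%, against 34.1% of all genes). Slc1a2, the main glutamate transporter of forebrain astrocytes, read 3.89, 3.94, 4.06 and 3.82 in cortex and 1.96, 2.06, 2.24 and 2.33 in cerebellum. All cortex arrays were above all cerebellum arrays, by 1.78 ± 0.0952 (SE, n = 4, limma adjusted p = 7.36e-17), a 3.43-fold difference. It was the 1 gene of this list that was higher in cortex, while 5 were higher in cerebellum: the bicarbonate transporter Slc4a4 (-1.996), the water channel Aqp4 (-1.74), the sodium pump subunit Atp1b2 (-1.08), Acsbg1 (-1.03) and the second glutamate transporter Slc1a3 (-0.79). Aqp4 levels were 2.34, 2.34, 2.35 and 1.96 in cortex and 4.05, 4.00, 3.97 and 3.94 in cerebellum. Cortex replicate 4 was the lowest of the 8, and the groups did not overlap without it either.

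Genes that mark astrocytes by brain division kept to their division. All 3 telencephalic astrocyte genes were higher in cortex, among them Mfge8 (1.75), a phagocytic bridging protein, and the transcription factor Lhx2 (3.98), which neurons express too. Agt, the angiotensinogen of non-telencephalic astrocytes, read -1.09, -1.53, -0.89 and -0.23 in cortex and 1.56, 1.65, 1.53 and 2.43 in cerebellum. Each cerebellum array exceeded each cortex array, with a difference of -2.73 ± 0.259 (SE, n = 4, limma adjusted p = 9.07e-11). Itih3 (-1.83) and the glycine transporter Slc6a9 (-1.28) went the same way, and the GABA transporter Slc6a11 was at 0.18, not called.

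Of 8 Bergmann glial genes, 5 were higher in cerebellum, with a list median of -1.44. Gdf10, a secreted factor that marks these cells, read -1.05, -1.33, -1.33 and -1.27 in cortex and 3.43, 3.52, 3.24 and 3.60 in cerebellum. That 25.9-fold difference (-4.69 ± 0.108, SE, n = 4, limma adjusted p = 1.24e-26) was as clear at 2 months (-4.56). A2m (-3.82), Gria4 (-2.26), Hopx (-1.74) and Sept4 (-1.15) were the others, while Fabp7 (0.05) and Gria1 (0.40) were not called.

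Reactive astrocyte genes did not share a direction. Gfap, the intermediate filament of reactive astrocytes, differed by -0.16 (limma adjusted p = 0.473), having risen with age in both regions, by 1.51 in cortex and 1.87 in cerebellum. Vimentin (Vim), its partner filament, read 2.89, 3.44, 3.46 and 2.58 in cortex and 4.38, 4.45, 4.20 and 4.52 in cerebellum at 29 months. The groups stayed apart (-1.29 ± 0.157, SE, n = 4, limma adjusted p = 1.85e-08), although less far than at 2 months (-2.48), and the interaction was 1.19 (adjusted p = 0.00209). The protease inhibitor Serpina3n read 0.71, 1.53, 1.55 and 0.25 in cortex and -1.03, -0.86, -0.13 and -0.20 in cerebellum. Cortex replicate 4 was close to the cerebellum arrays, and the difference was 1.56 ± 0.419 (SE, n = 4, limma adjusted p = 0.00195). In all, 3 of 13 tested members were higher in cortex (Serpina3n, the receptors S1pr3, 0.81, and Osmr, 0.81) and 5 in cerebellum (Vim, Cd44, Timp1, Cp and Cxcl10, from -0.59 to -1.29). Leaving out cortex replicate 4 ended the calls of Timp1 (-0.34) and Cxcl10 (-0.72), and leaving out cortex replicate 1 those of Timp1 (-0.56) and Cp (-0.54). Without cerebellum replicate 4 Timp1 (-0.52) and Cp (-0.53), and without cerebellum replicate 1 Timp1 (-0.58), were not called, and a second Cp probe (-0.59, adjusted p = 0.117) was not called.

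Of 22 tested myelin and mature oligodendrocyte genes, 2 were higher in cortex and none in cerebellum, with a list median of 0.01. Mbp, the myelin basic protein, differed by -0.07 on the probe with the highest signal, but its 2 other tested probes read 1.27 and 1.60 and were called higher in cortex. The called members were Enpp2 (1.62 ± 0.378, SE), which makes lysophosphatidic acid and is made by choroid plexus too, and Cldn11 (0.65), a tight junction protein of myelin. The Cldn11 call was lost without cortex replicate 2 (0.51) or 3 (0.55) or cerebellum replicate 1 (0.58). Enpp2 read 5.99, 5.75, 6.40 and 5.03 in cortex, lowest in the array low for choroid plexus genes, against 4.10, 4.14, 4.33 and 4.15 in cerebellum. Without cortex replicate 4 there were 4 calls, all higher in cortex, with Opalin (1.18) and the lineage factor Sox10 (0.68) in addition. The mean level of the myelin list was 3.27, 3.60, 3.63 and 2.66 on the cortex arrays, lowest on replicate 4, and 3.12, 3.12, 3.30 and 3.25 on the cerebellum arrays.

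Of 14 precursor genes 9 were higher in cortex and none in cerebellum, with a median of 0.90. That is 64.3% called, against 34.1% of all genes. Pdgfra, the growth factor receptor that defines precursors, read 1.35, 1.26, 1.38 and 1.54 in cortex and -0.18, -0.25, -0.01 and 0.07 in cerebellum. The levels did not overlap, and the difference of 1.47 ± 0.105 (SE, n = 4, limma adjusted p = 1.03e-13) was 1.58 at 2 months. Gpr17, a receptor of cells committed to differentiate, read 3.23, 2.97, 3.097 and 2.90 in cortex and 1.24, 0.98, 1.62 and 1.47 in cerebellum, 1.72 ± 0.232 apart (SE, n = 4, limma adjusted p = 1.34e-07). The proteoglycan Cspg4 (1.35), Matn4 (1.24), Neu4 (0.97), C1ql1 (0.94), and the lineage factors Olig2 (0.91), Sox6 (0.88) and Olig1 (0.74) made up the rest, and the Neu4 call was lost without cortex replicate 1 (0.90) or 3 (0.86) or cerebellum replicate 2 (0.74). None of the list had a called interaction with age.

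Homeostatic microglial genes were mostly higher in cortex: 11 of 16, against 1 higher in cerebellum, with a median difference of 0.94. In all 75% were called, against 34.1% of all genes. P2ry12, the purinergic receptor that guides microglial processes, read 0.78, 0.85, 0.82 and 0.71 in cortex and -0.58, -0.84, -0.91 and -0.84 in cerebellum. The regions did not overlap, at 1.58 ± 0.174 (SE, n = 4, limma adjusted p = 2.36e-09), 2.99-fold. Tmem119, a surface marker of microglia, read 1.46, 1.44, 1.48 and 1.28 in cortex and 0.02, -0.00, -0.04 and 0.26 in cerebellum, 1.35 ± 0.12 apart (SE, n = 4, limma adjusted p = 2.12e-11). Tmem119 levels did not overlap between the regions either.

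The fructose transporter Slc2a5 (2.28), Selplg (1.32), the transcription factor Sall1 (1.25), the fractalkine receptor Cx3cr1 (1.09), the growth factor receptor Csf1r (0.96), P2ry13 (0.92), Gpr34 (0.89) and Fcrls (0.85) were higher in cortex too. Itgam (0.16) and Aif1 (0.54), a calcium-binding marker of microglia, were among those not called. Olfml3 (-0.62) was called higher in cerebellum on its brightest probe, a call lost without cortex replicate 1 (-0.56) or 4 (-0.57) or cerebellum replicate 4 (-0.53), but another of its probes was higher in cortex (0.67), and Siglech likewise gave -0.29, not called, and 1.62, called, on 2 probes. A second Csf1r probe read 0.42 and passed no fold threshold. In the fit with the slide as a block Aif1 (2.30) was called as well.

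Of 8 ligands that sustain or restrain microglia, 3 were called (37.5%, against 34.1% of all genes), all higher in cortex, with a list median of 0.28. Il34, a neuronal ligand of Csf1r, read 2.98, 2.87, 2.88 and 3.18 in cortex and 1.01, 0.87, 0.92 and 1.04 in cerebellum. The difference was 2.02 ± 0.168 (SE, n = 4, limma adjusted p = 4.5e-12), 4.04-fold. Cx3cl1, the neuronal ligand of Cx3cr1, read 6.69, 6.71, 6.65 and 6.69 in cortex and 4.20, 4.06, 4.29 and 4.28 in cerebellum, 2.48 ± 0.158 apart (SE, n = 4, limma adjusted p = 6.67e-15). Cd200 (1.09), another neuronal restraint on microglia, was the third, and Csf1, the second ligand of Csf1r, was not called (-0.04). The interactions of Il34 (-1.10) and Cx3cl1 (-0.99) were called, though neither was with 2-month cerebellum reduced to replicates 3 and 4.

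For 8 of 16 homeostatic microglial genes the regional difference was smaller at 29 than at 2 months. The list median was 2.01 at 2 months, when 13 of 16 were higher in cortex, and the called negative interactions included those of P2ry13 (-1.12), Tmem119 (-0.73), Cx3cr1 (-0.996), Csf1r (-0.77), Fcrls (-1.50) and Aif1 (-1.47). The interaction of P2ry12 (-0.44) was not called. In Tmem119 the cortex levels at 2 months were 1.18, 1.30, 1.07 and 1.57, around those of 29 months, and the cerebellum levels were -1.01, -0.91, -0.80 and -0.51, all below those of 29 months. Between 2 and 29 months Cx3cr1 differed by 0.84 in cerebellum and -0.15 in cortex. With 2-month cerebellum reduced to replicates 3 and 4, 4 of the 8 interactions held, P2ry13 and Aif1 among them, and under median scaling the count was 4.

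**Figure D4:**
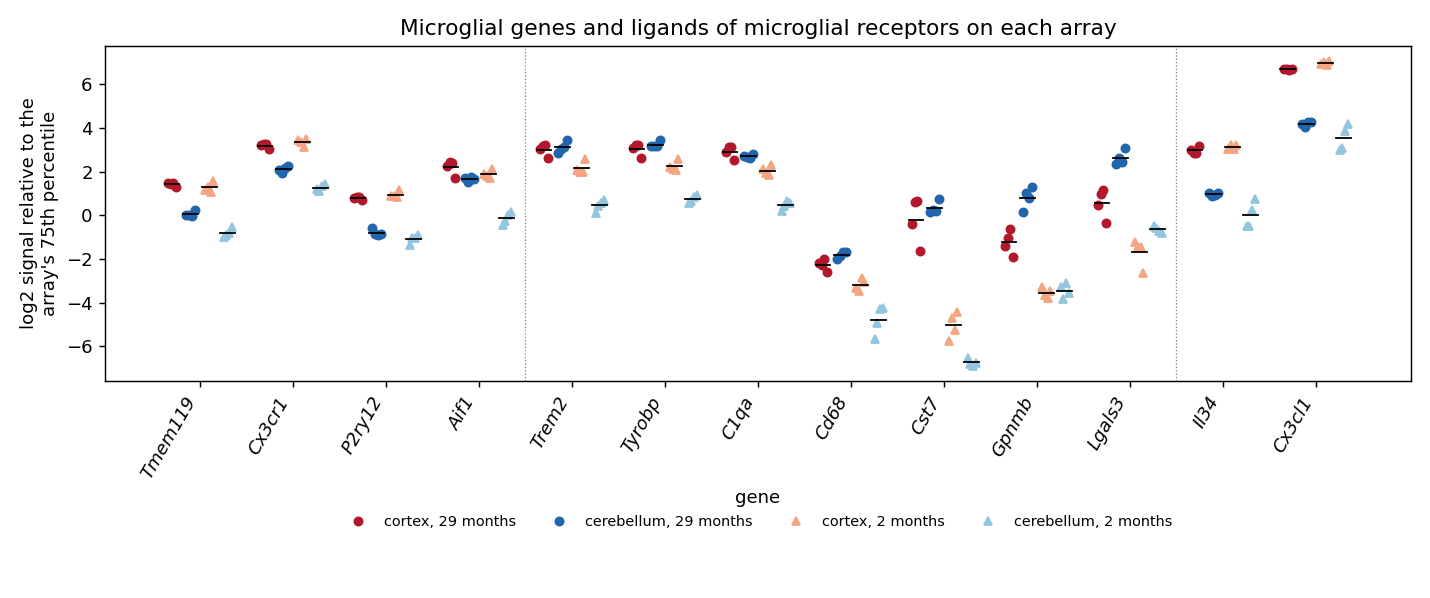
Levels (log2 signal relative to the array's 75th percentile) of homeostatic microglial genes, activated microglial genes and 2 neuronal ligands on each of the 4 arrays per group, with the bar at the group mean. The regions stay apart at 29 months for Tmem119, Cx3cr1, P2ry12, Il34 and Cx3cl1, meet for Trem2, Tyrobp and C1qa, and the cerebellum arrays lie higher for Gpnmb and Lgals3.

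Disease-associated microglial genes did not follow the homeostatic ones. Of 22 tested at 29 months, 1 was higher in cortex and 5 in cerebellum, with a median of -0.36. That is 27.3% called, against 34.1% of all genes. A called negative interaction was found for 10, where 1.44% of all genes had one. Trem2, the lipid-sensing receptor that drives this state, read 3.02, 3.18, 3.24 and 2.62 in cortex and 2.88, 3.04, 3.12 and 3.46 in cerebellum at 29 months. The 2 sets of levels overlapped, at -0.11 ± 0.165 (SE, n = 4, limma adjusted p = 0.59). At 2 months Trem2 had read 2.07, 2.01, 2.00 and 2.56 in cortex and 0.12, 0.41, 0.57 and 0.70 in cerebellum, a difference of 1.71. The interaction was -1.82 ± 0.233 (SE, adjusted p = 1.35e-05), and Trem2 was higher at 29 months by 0.85 in cortex and 2.67 in cerebellum. Its adaptor Tyrobp behaved alike, at -0.20 after 1.51 at 2 months, with age differences of 0.78 and 2.49.

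Gpnmb, a glycoprotein of lipid-laden phagocytes, was higher in cerebellum. It read -1.39, -1.03, -0.63 and -1.91 in cortex and 0.15, 1.01, 0.81 and 1.29 in cerebellum. The groups did not overlap, with a difference of -2.06 ± 0.266 (SE, n = 4, limma adjusted p = 6e-08), 4.16-fold, where the 2-month difference had been -0.10. Lgals3, the galectin of phagocytes, read 0.49, 0.97, 1.16 and -0.36 in cortex and 2.37, 2.61, 2.43 and 3.08 in cerebellum. It too was separated, at -2.06 ± 0.335 (SE, n = 4, limma adjusted p = 3.71e-06). The pattern receptor Clec7a read 0.14, 0.82, 0.99 and -1.37 in cortex and 1.04, 1.23, 1.37 and 1.35 in cerebellum. Cortex replicate 4 stood below the rest, and the groups came close without overlapping (-1.10, limma adjusted p = 0.0038).

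Spp1 (-1.13), osteopontin, and the lysozyme Lyz2 (-1.01) completed the 5 of the cerebellar side. Lpl, which releases fatty acids from lipoproteins, was the 1 member higher in cortex: it read 0.79, 0.87, 0.99 and 0.46 in cortex and -0.72, -0.80, -0.53 and -0.38 in cerebellum, 1.38 ± 0.18 apart (SE, n = 4, limma adjusted p = 7.29e-08). That gap was narrower than the 3.61 of 2 months. Apoe (0.04), Cd68 (-0.46), the integrin Itgax (-0.51) and the cystatin Cst7 (-0.53) were not called at 29 months. Age differences were large in both regions for Cst7 (4.85 in cortex, 7.08 in cerebellum) and Itgax (4.63 and 6.40). The interactions of Trem2, Tyrobp, Cst7, Lpl, Gpnmb and Cd68 held with 2-month cerebellum reduced to replicates 3 and 4, while those of Itgax, Ctsd, Ccl3 and Ccl4 did not. With the slide as a block 1 of the list, in place of 5, was higher in cerebellum, and Gpnmb turned to 0.55, not called, and Trem2 to 1.71.

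Border macrophage genes gave 1 call of 6, Ms4a7 (-0.997), higher in cerebellum, with an interaction of -1.26. Among 6 tested Fc receptor genes, Fcgr3 (0.73) was higher in cortex, and 3 had negative interactions: Fcgr3 (-0.98), Fcgr2b (-1.20) and Fcer1g (-1.39). All 3 held with 2-month cerebellum reduced to replicates 3 and 4.

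Of 16 complement genes 6 were called (37.5%, against 34.1% of all genes), 3 in each direction. C1qa, a chain of the first complement component, read 2.89, 3.13, 3.14 and 2.52 in cortex and 2.70, 2.69, 2.62 and 2.81 in cerebellum. The groups overlapped at 29 months (0.22 ± 0.147, SE, n = 4, limma adjusted p = 0.215), where at 2 months they had read 2.14, 1.94, 1.84 and 2.29 in cortex against 0.19, 0.43, 0.64 and 0.56 in cerebellum. The interactions of C1qa (-1.38), C1qb (-1.37) and C1qc (-1.51) were called, also with 2-month cerebellum reduced to replicates 3 and 4. C1ra (1.17), C4b (0.75) and Cd55 (0.71), a brake on complement, were higher in cortex. Cfp, or properdin, which stabilises the alternative pathway, read -0.12, -0.28, -0.12 and -0.33 in cortex and 1.59, 1.67, 1.56 and 0.94 in cerebellum. The cerebellum arrays were all higher (-1.65 ± 0.233, SE, n = 4, limma adjusted p = 3e-07), with replicate 4 the lowest of them, and the inhibitors Serping1 (-0.996) and Cd59a (-0.85) shared the direction. C3 (-0.31) was not called. All 6 calls were the same at 2 months, as were 4450 of the 5189 calls over all genes.

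Of 10 MHC class I genes 4 were higher in cerebellum and none in cortex, with a median of -0.49. That is 40% called, against 34.1% of all genes in either direction and 15.8% higher in cerebellum. H2-D1, a class I heavy chain, read 2.64, 2.74, 2.88 and 2.23 in cortex and 4.16, 4.11, 4.07 and 4.19 in cerebellum, which did not overlap (-1.51 ± 0.153, SE, n = 4, limma adjusted p = 3.85e-10). H2-K1 (-0.79), H2-T23 (-0.79) and the peptide transporter Tap2 (-0.60) were the others, and a probe for 1 heavy chain gene could bind RNA of its close relatives. The Tap2 call was lost without cortex replicate 1 (-0.58). Among 7 class II genes only H2-DMa (1.68), the peptide exchange factor, was called, higher in cortex, and the invariant chain Cd74 (0.21) was not.

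Of 22 tested interferon-stimulated genes 11 were higher in old cerebellum and none in cortex, with a median of -0.80. That is 50%, against 15.8% of all genes higher in cerebellum. Of the 11, 9 were called the same way in all 3 other 29-month groups, against 72.4% of all genes higher in cerebellum. At 2 months 1 was higher in cerebellum and 3 in cortex, with a median of -0.06. Promoters of 3 of the 11 are shown because they hold the motif that interferon-activated factors are known to bind, GAAANNGAAA, on either strand (capitals). They are the 250 bases before the transcription start from RefSeq (GRCm38.p6), at chr19:34640639-34640888 (+), chr19:34583279-34583528 (+) and chr5:120907526-120907775 (-), each with 2 matches, which overlap in Oas1a.
Ifit1: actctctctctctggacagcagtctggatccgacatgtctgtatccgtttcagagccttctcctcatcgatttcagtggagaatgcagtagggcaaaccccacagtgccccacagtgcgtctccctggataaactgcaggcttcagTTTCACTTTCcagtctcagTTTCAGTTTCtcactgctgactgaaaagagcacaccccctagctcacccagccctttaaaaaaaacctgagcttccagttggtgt
Ifit3: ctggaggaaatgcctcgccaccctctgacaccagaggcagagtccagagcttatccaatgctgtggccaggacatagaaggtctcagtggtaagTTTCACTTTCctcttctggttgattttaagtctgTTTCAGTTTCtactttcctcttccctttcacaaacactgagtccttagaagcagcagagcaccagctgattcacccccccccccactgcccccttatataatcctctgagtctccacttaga
Oas1a: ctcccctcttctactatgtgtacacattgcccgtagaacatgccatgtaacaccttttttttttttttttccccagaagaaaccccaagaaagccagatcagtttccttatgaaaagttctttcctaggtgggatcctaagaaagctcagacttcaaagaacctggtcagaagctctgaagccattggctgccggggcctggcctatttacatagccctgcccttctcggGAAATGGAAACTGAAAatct
Of the 9 genes higher in cerebellum with a window in the table, 5 held a match (55.6%), against 4 of 8 tested and not called (50%) and 936 of 27025 genes (3.46%), and Usp18 and Ifi27l2a had no entry.

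Ifit3, an antiviral RNA-binding protein, read 1.43, 1.29, 1.098 and 0.72 in cortex and 3.14, 2.54, 2.36 and 1.97 in cerebellum. The regions did not overlap, at -1.37 ± 0.318 (SE, n = 4, limma adjusted p = 0.000469). Irf7, the factor that amplifies interferon production, read -3.59, -3.97, -3.67 and -3.97 in cortex and -1.58, -2.41, -2.37 and -2.91 in cerebellum, also apart (-1.49 ± 0.397, SE, n = 4, limma adjusted p = 0.00193). Stat2, which carries the interferon signal to the nucleus, read 1.17, 1.16, 1.09 and 1.17 in cortex and 2.67, 2.80, 2.56 and 2.38 in cerebellum. It was the tightest of the 11 (-1.46 ± 0.0886, SE, n = 4, limma adjusted p = 1.98e-15) and the 1 that was called at 2 months too (-1.78).

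Ifi27l2a (-1.36), Oas1a (-1.29), Usp18 (-1.27), Ifit1 (-1.26), Ifi44 (-1.17), Rsad2 (-1.11), Oasl2 (-1.10) and Irf9 (-0.96) made up the rest. Between 2 and 29 months Ifit1 differed by 2.35 in cerebellum and by 0.91, not called, in cortex, and Irf7 by 1.42 and 0.04. The interactions of Ifit1 (-1.44, adjusted p = 0.195) and Irf7 (-1.38, adjusted p = 0.281) were not called, and those of Ifit2 (-1.01) and Lgals3bp (-1.15) were, though not with 2-month cerebellum reduced to replicates 3 and 4. Without cortex replicate 4 the calls of Oasl2 (-0.86) and Ifi44 (-0.97) were lost and 9 genes were called, and without cerebellum replicate 1 that of Ifi44 (-0.90) was lost. With the slide as a block, 1 of the list was higher in cerebellum in place of 11, and Ifit1 (0.20), Irf7 (0.38), Oasl2 (0.01) and Rsad2 (0.66) turned sign without being called.

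**Figure D5:**
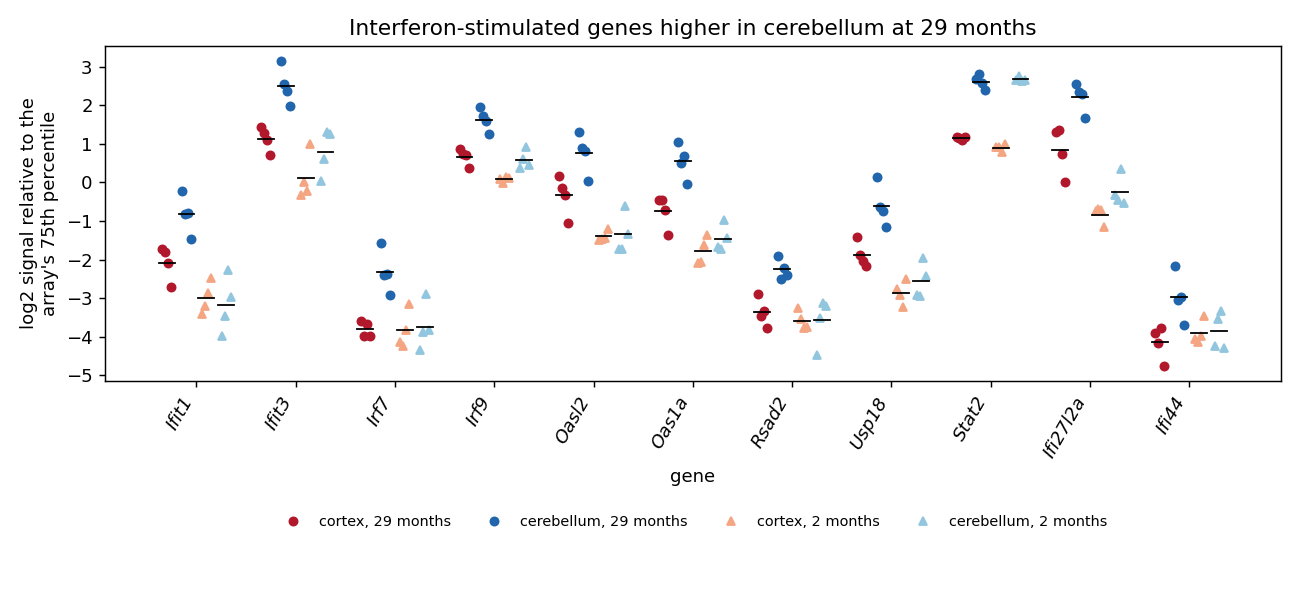
Levels (log2 signal relative to the array's 75th percentile) of the 11 interferon-stimulated genes higher in cerebellum at 29 months, on each of the 4 arrays per group, with the bar at the group mean. At 29 months the cerebellum mean is above the cortex mean for all 11, while at 2 months only Stat2 shows a called difference.

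Among 12 tested chemokine and cytokine genes, 3 were higher in each region. Il16, a cytokine gene whose long neuronal form is known from cerebellar granule cells, gave the largest immune difference: it read -1.16, -0.97, -0.85 and -1.99 in cortex and 3.26, 3.32, 3.17 and 3.29 in cerebellum. That is 22.7-fold (-4.50 ± 0.211, SE, n = 4, limma adjusted p = 2.26e-18), and the difference at 2 months was -5.21. Ccl5 (-1.02) and Ccl2 (-0.75), both chemokines, were the others of the cerebellar side, and both calls were lost without cortex replicate 4 (-0.63 and -0.38). The Ccl2 call was also lost without cortex replicate 2 or 3 (-0.80 and -0.69) or cerebellum replicate 1 or 2 (-0.57 and -0.74). Ccl9 (0.84), Il18 (0.77) and Cxcl14 (0.73) were higher in cortex.

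Of 11 Toll-like receptor genes and adaptors, Tlr12 (1.65) and Tlr7 (0.88) were higher in cortex and Tlr2 (-0.75) and Tlr4 (-0.66) in cerebellum. That is 36.4% called, against 34.1% of all genes. A second Tlr7 probe read 0.19. Without cortex replicate 4 the calls of Tlr2 (-0.51) and Tlr7 (0.72) were lost, and without cortex replicate 1 that of Tlr4 (-0.58). Lymphocyte genes were scarce. Of 14 T cell genes 9 were bright enough to be tested, and Lck (1.22), a kinase of T cells that neurons express too, was higher in cortex and Cd2 in cerebellum. Cd2 was above background on 4 of 4 cerebellum and 0 of 4 cortex arrays, at least 1.67-fold higher. It passed the brightness filter through cerebellum alone, so no p-value is given. Its call was lost without cortex replicate 4 or cerebellum replicate 1 (fitted differences of -1.02 and -1.24). Of 3 B cell genes tested, Jchain (-1.19) was narrowly called, having passed the brightness filter through cerebellum alone. Leaving out cortex replicate 1, 2 or 4 (-0.93 to -1.26) or cerebellum replicate 1 or 2 (-0.48 and -1.30) ended the call.

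Genes of blood and vessels moved partly with region. All 4 tested red cell genes were higher in cerebellum, from -2.02 to -2.61, with a summed level of 2.24 to 3.48 in cortex and 3.60 to 6.40 in cerebellum. Of these calls 3 were the same at 2 months, and 0 were found in all 3 other 29-month groups. Without cortex replicate 4, 3 of the red cell genes were called. Of 13 endothelial genes 1 was higher in each region, and 1 of the 2 was called without cortex replicate 4, none of 8 pericyte genes was called, and meningeal fibroblast genes gave 1 of 8 higher in cortex and 3 in cerebellum. Of 9 tested choroid plexus genes, 5 were higher in cortex and 1, Otx2 (-3.04), in cerebellum, with a summed level of 2.12 to 7.22 in cortex and 2.50 to 2.71 in cerebellum, and 9 were called without cortex replicate 4. Neuronal immediate early genes, which follow recent activity, were higher in cortex for 7 of 8, among them Arc (3.46) and Fosb (2.87), while Fos (0.19) was not called. The part of these tissues in the immune differences was not tested.

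Ttpa itself was at least 1.96-fold higher in cerebellum, where it was above background on all 4 arrays, against none of the 4 in cortex. Because it passed the brightness filter through cerebellum alone, no p-value is given. Of the study's other named genes that were looked up, Car8 was described above and 2 were too dim to be tested. Gm3448 (1.22) was higher in cortex, and Pla2g3 (0.35), Ide (-0.27), Tcp10c (0.46) and Tsga10 (0.05) were not called. Others that the study named, such as Gm2252, were not looked up.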

How the data were processed

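RNA of mouse cortex and cerebellum was hybridised by the authors to 1-colour Agilent arrays, 10 groups of 4. The deposited scanner files hold intensity values (gProcessedSignal, background-subtracted; Feature Extraction 10.7.3.1 in the file headers, 10.1.1.1 in the submitters' processing notes). The authors' deposited log2 values served as an alternative. Other samples' columns were not used.

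Of 62976 spots, control spots and spots with outlier flags were left out and spots of a probe averaged, leaving 55589 of 55681 probes. The log2 intensity minus log2 of each array's 75th percentile was tested with limma 3.58.1 (R 4.3.3, with the data.table package, version 1.17.8), with 1 coefficient for each of 10 groups over 40 arrays and Benjamini-Hochberg adjustment over probes that were well above background throughout (4 of 4 arrays) in 1 or both compared groups. A probe was called at an adjusted p under 0.05 and over 1.5-fold. A gene was represented by the probe that was brightest on average over the 40 arrays. Genes were named by size of difference (10 per direction measured on all 8 arrays, 6 per direction measured in 1 region, 6 per direction for the interaction measured on all 16 arrays) or as list members, and some of these genes are not reported here. Of 21916 transcript identifiers, 20591 matched RefSeq. Probe coordinates are mm9 as in the files. Scripts were tested on simulated data.

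Alternatives were median and quantile scaling, normexp background correction, no filter, array weights, the compared groups alone, the authors' log2 values, genes in place of probes, the methods' t-test, the slide as a block, 1 slide alone, the replicate number as a block and each array left out. The comparison, the genes and the lists were chosen with earlier results of these data known. The number of arrays limits the precision.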

Additional observations from a re-analysis of the deposited data

Results flagged for a closer look

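In 4 of 64 groups of 4 arrays checked for the genes described array by array, 1 array stood apart from the other 3, where chance gives about 1 in 20. Cortex replicate 4 at 29 months had an Aqp4 level of 1.96, with the nearest other array at 2.34. Cerebellum replicate 4 at 29 months had an Agt level of 2.43, nearest 1.65, and a Cfp level of 0.94, nearest 1.56. Cortex replicate 3 had a Stat2 level of 1.09, nearest 1.16, in a group that spanned little.

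The regional difference at 29 months differed from that at 2 months, by the limma interaction contrast at an adjusted p under 0.05 and over 1.5-fold, for 45 of the genes described. The change (29 months minus 2 months, log2) was positive for Zic1 0.82, Ntf3 2.59, Pdlim3 2.03, Car9 1.88, Rara 1.75, Col23a1 1.68, S1pr2 1.52, Vim 1.19 and Ttr 7.62. It was negative for Crym -2.05, Tcap -2.76, Tpbg -2.38, Lpl -2.23, Fam163b -2.18, Rgs9 -2.17, Gpnmb -1.96, S1pr3 -0.71, P2ry13 -1.12, Tmem119 -0.73, Cx3cr1 -0.996, Csf1r -0.77, Fcrls -1.50, Aif1 -1.47, Trem2 -1.82, Tyrobp -1.71, Itgax -1.76, Cst7 -2.23, Cd68 -2.06, Ctsd -0.62, Ccl3 -1.94, Ccl4 -1.56, Ms4a7 -1.26, Il34 -1.10, Cx3cl1 -0.99, C1qa -1.38, C1qb -1.37, C1qc -1.51, Ctss -1.16, Ifit2 -1.01, Lgals3bp -1.15, Itgb2 -1.09, Ccl9 -1.05, Fcgr3 -0.98, Fcgr2b -1.20 and Fcer1g -1.39. With 2-month cerebellum reduced to its replicates 3 and 4, 26 of the 45 were still called. Crym and Ttr, among the genes of largest change, were above background on fewer than all 16 arrays. Ttr ranged from 1.19 to 7.78 on the 2-month cerebellum arrays. Age and slide cannot be told apart in these changes.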

How the results depend on the processing

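Other than those of the slide, the alternatives computed gene by gene were median and quantile scaling, normexp, the authors' log2 values, the compared groups alone, the replicate block, each array left out and cortex without replicate 4 at both ages. Of 166 named genes at 29 months, none that was called with or without the alternative changed sign under these. Signs of genes called in neither fit were not compared. Median scaling ended 5 calls of the named genes, quantile normalization 4, normexp 10 and the compared groups alone 5, and the authors' log2 values ended none. Normexp background correction gave 3280 probes higher in cerebellum at 29 months, 3670 at 2 months and 2830 at both. With no filter on dim probes 14244 probes were higher in cortex. Counting genes in place of probes gave 2784 and 2409 higher in cortex and cerebellum at 29 months, 3172 and 2554 at 2 months, and 2450 and 2002 at both. The methods' t-test with Benjamini-Hochberg adjustment called 3 disease-associated microglial genes higher in cerebellum. Of the interactions, median scaling left 46 positive and 96 negative probes and 4 homeostatic microglial genes, array weights gave 263 and 526 probes, and the compared groups alone gave 5 disease-associated microglial genes. The cause of these shifts was not tested.

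Leaving out each array gave 4694 to 5035 probes higher in cortex and 5221 to 5782 higher in cerebellum at 29 months, 24 to 37 immune and 9 to 15 interferon-stimulated genes higher in cerebellum, and 205 (without 2-month cerebellum replicate 2) to 575 (without its replicate 4) negative interactions. Alternatives added after seeing the data were 2-month cerebellum reduced to replicates 3 and 4 (79 positive and 115 negative interactions, with 4 homeostatic and 6 disease-associated microglial genes) and cortex without replicate 4 (204 negative interactions).

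The labels do not say whether equal replicate numbers share a mouse. At 29 months same-numbered arrays of the 2 regions correlated in their deviations from the group means at 0.06, -0.11, 0.29 and 0.30. Of the 4 cortex arrays 2 correlated best with their own number. Correlations of so few arrays cannot decide whether the samples were paired, and the main comparison was unpaired. With the replicate block 4911 and 5569 probes were called at 29 months and 353 negative interactions, within 1.5 times of the counts without it.

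The slide changed the most values. Each 29-month normal-diet region lay on its own slide, so the slide as a block had to assume 1 regional difference for all conditions, and no slide alternative could be had for the interactions. That fit rests on the 1 slide that held both regions, with cortex of 29-month Ttpa-/- mice on the deficient diet and cerebellum of 2-month wild-type mice, where age, genotype and diet differ with region. The block gave 47 immune genes higher in cortex and 9 in cerebellum, with 1 disease-associated and 1 interferon-stimulated gene higher in cerebellum. Within that slide the counts were 92, 8, 0 and 1. No shares of all genes are set beside these slide counts, so they are not read as particular to the lists. Signs were compared only for genes called in the main fit or in the slide alternative. Genes whose sign turned under the block had these differences: Ntf3 -2.05, Rara -2.23, Tcap 2.57, Tpbg 1.41, Gpnmb 0.55, Trem2 1.71, Tyrobp 1.78, Cd68 2.29, Lyz2 0.20, Ctsd 0.80, Ms4a7 0.53, Ifit1 0.20, Irf7 0.38, Oasl2 0.014, Rsad2 0.66, Fcgr2b 0.97 and Jchain 0.24. Those that turned within that slide were Ntf3 -1.42, Pdlim3 -0.57, Rara -1.24, Col23a1 -0.10, S1pr2 -0.97, Tcap 2.33, Tpbg 0.73, Gpnmb 1.68, Fabp7 -1.54, Gfap 1.27, Timp1 0.43, Cxcl10 2.04, Cldn11 -0.10, Trem2 1.90, Tyrobp 1.76, Itgax 4.89, Clec7a 2.70, Cst7 5.11, Spp1 0.48, Cd68 2.41, Lyz2 1.41, Lgals3 0.60, Ctsd 0.63, Ccl3 3.35, Ccl4 3.01, Ms4a7 0.80, C3 0.89, H2-K1 0.24, Tap2 0.37, Ifit1 0.66, Ifit3 0.089, Oasl2 0.78, Oas1a 0.52, Rsad2 0.63, Usp18 0.29, Ifi27l2a 0.71, Lgals3bp 1.79, Ccl2 1.19, Ccl5 1.15, Tlr2 0.98, Tlr4 0.31, Fcgr2b 1.69 and Jchain 1.25. Signal over background limits dim genes such as Cd2 and Irf7.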
